A study of Mus musculus with 6 samples.

Results

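The 10 genes described here encode the glycoproteins with which platelets hold on to a damaged vessel wall and the proteins they store in their alpha granules: Gp1ba, Gp5, Gp9, Gp6, Itga2b, Itgb3, Vwf, Selp, Pf4 and Ppbp. They were taken by symbol from a table of 55487 mouse genes, all 10 were found once, and all 10 were among the 18766 genes with a mean high enough to be tested. The table came from total RNA of 6 libraries. Cells positive for cKit were taken from whole mouse bone marrow, given a lentivirus for overexpression of MLLT3, in its wild type form (WT, n = 3) or in a form altered by K63E and K67E (DM, n = 3), sorted, and grown for 8 days in methylcellulose. Both groups carried a vector, and both grew with 4-hydroxytamoxifen (200 nM) to delete the endogenous Mllt3 gene, so WT is a rescued group and not unmanipulated marrow. Both also received Flt3L at 10 ng/mL and, at 20 ng/mL each, further cytokines, among them erythropoietin, SCF, GM-CSF, IL-3, IL-6 and IL-11. Mllt3 itself read 12.87, 12.6 and 12.44 in WT against 12.44, 12.03 and 11.99 in DM and was itself called lower in DM (-0.48, SE 0.137, limma adjusted p 0.0448), so the groups also differed in its level. Since endogenous and vector transcripts were not separated, this checks neither the deletion nor the labels. The promoter of the vector, the Cre driver and the age, sex and number of the mice are not given in the sources used here. Since nothing states that replicates came from separate animals, p-values measure only the spread between these libraries.

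Platelets are shed by megakaryocytes, large cells that grow from stem and progenitor cells. The GPIb-IX-V complex, built from the products of Gp1ba, Gp1bb, Gp9 and Gp5, catches von Willebrand factor (Vwf) under fast flow. GPVI (Gp6) binds collagen and signals through the Fc receptor gamma chain (Fcer1g) and the kinase Syk, and the integrin of the Itga2b and Itgb3 products binds fibrinogen and links platelets to each other. Alpha granules store Vwf, the chemokines Pf4 (CXCL4) and Ppbp (the precursor of CXCL7), and in their membrane P-selectin (Selp), which reaches the surface on activation. Some of these genes are used by other cells too: Vwf and Selp by endothelium, Itga2b by early progenitors and mast cells, and Pf4 by some macrophages.

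The promoters of the genes that carry the results are shown because transcription factors of the GATA and ETS families are known regulators of platelet genes. RefSeq windows on GRCm38.p6, from 250 bases before to 50 bases after a start site, were available for 8 of the 10 genes, all but Vwf and Itgb3. They are printed 5′ to 3′ on the strand of the gene, with capitals marking the GATA letters TGATAA, their variant form AGATAA, and for ETS factors the letters GGAAGT, each on either strand. They belong to Gp1ba, whose level differed between the groups, to Gp5, Pf4 and Ppbp, which varied most between libraries, and to Itga2b, which followed another order of libraries.
Gp1ba (chr11:70638872-70639171, plus strand): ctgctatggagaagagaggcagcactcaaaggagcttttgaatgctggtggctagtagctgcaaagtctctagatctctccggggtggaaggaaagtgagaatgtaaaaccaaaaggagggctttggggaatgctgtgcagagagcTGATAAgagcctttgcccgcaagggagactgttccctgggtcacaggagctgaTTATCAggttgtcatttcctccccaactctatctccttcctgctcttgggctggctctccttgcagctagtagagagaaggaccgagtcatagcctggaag
Gp5 (chr16:30310732-30311031, minus strand): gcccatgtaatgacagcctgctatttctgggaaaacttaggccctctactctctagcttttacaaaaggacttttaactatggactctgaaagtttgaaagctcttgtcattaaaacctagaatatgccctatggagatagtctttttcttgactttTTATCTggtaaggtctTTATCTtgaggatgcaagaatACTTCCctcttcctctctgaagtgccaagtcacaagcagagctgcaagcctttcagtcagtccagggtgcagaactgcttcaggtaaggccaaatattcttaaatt
Pf4 (chr5:90772185-90772484, plus strand): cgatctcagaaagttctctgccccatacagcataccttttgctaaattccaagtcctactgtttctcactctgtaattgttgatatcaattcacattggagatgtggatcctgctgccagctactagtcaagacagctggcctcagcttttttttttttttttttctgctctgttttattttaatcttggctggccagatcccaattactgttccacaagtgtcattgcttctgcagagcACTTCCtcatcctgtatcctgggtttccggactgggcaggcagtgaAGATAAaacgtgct
Ppbp (chr5:90768268-90768567, plus strand): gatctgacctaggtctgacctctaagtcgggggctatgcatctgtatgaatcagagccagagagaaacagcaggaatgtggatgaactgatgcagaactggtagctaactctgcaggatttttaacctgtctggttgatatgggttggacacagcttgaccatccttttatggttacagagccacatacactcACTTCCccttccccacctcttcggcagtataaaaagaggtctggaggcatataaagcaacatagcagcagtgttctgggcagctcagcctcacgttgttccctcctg
Itga2b (chr11:102469834-102470133, minus strand): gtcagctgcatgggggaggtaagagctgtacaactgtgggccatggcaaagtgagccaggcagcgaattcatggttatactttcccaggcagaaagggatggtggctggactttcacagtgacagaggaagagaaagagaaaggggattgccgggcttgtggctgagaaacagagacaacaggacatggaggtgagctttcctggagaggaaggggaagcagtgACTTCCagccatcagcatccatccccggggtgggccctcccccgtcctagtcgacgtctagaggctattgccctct
The GATA letters were found in 4 of the 8 windows (Gp1ba, Gp5, Gp6 and Pf4) and in 18.6% of the 32851 windows in the RefSeq table. The matches of Gp1ba begin 104 and 51 bases before its start site, and those of Gp5 begin 93 and 77 bases before. The ETS letters were found in 7 of the 8 windows, all but that of Gp1ba, and in 23.8% of all windows. They begin 56 bases before the start site in Gp5, 57 in Ppbp, 26 in Itga2b and 10 in Pf4. The RUNX letters TGTGGT, also searched on both strands, were found in 1 of the 8 windows (Gp9) and in 16.8% of all windows. A match describes the letters and is not a measured binding site.

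Values are regularized log (rlog) values, which are on the log2 scale, are scaled for library size and pull low values toward the mean of their gene, so that changes of low genes are understated. They ran from -1.97 to 21.88 over the table, and depth is unknown because no counts were used. Between 1 gene and another a level can be compared only per length, here that of the joined exons of all annotated transcripts. For Vwf this was 16064 bases over 11 transcripts. A level is understated where the transcript in use is shorter, which is not known here. Ranges over libraries do not cover such an error, so the ranks below are uncertain. Per kilobase of annotated exon, Pf4 was highest with a mean over the 6 libraries of 11.2 (from 10.49 to 11.92), followed by Itga2b at 10.93 (from 10.66 to 11.26), which the spread over libraries did not separate from it. Ppbp (9.81), Gp1ba (9.75) and Itgb3 (9.74) followed with ranges over libraries that met one another, and Vwf (9, from 8.7 to 9.42) lay below the range of Itgb3 (from 9.47 to 9.97). Gp9 (7.09) and Gp5 (6.99) came next and were not separated either, while Selp (4.85, from 4.5 to 5.32) and Gp6 (3.78, from 3.46 to 4.17) lay lower and did not overlap. The fourth subunit of the von Willebrand receptor, Gp1bb, had rlog values between 0.53 and 0.56 in all 6 libraries and was too low to be tested. Its exons overlap those of Sept5 and Gm49601 on the same strand, and how shared reads were assigned is not given in the sources used here.

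The comparison of DM with WT asks how far the substitutions in the YEATS domain, the part of MLLT3 that binds acylated histones and, per the series title, 7SK RNA, alter these platelet genes once the endogenous gene is targeted. Gp1ba and Vwf, a receptor subunit and its ligand, were higher in DM by 1.46-fold and 1.45-fold, and the other 8 genes did not pass the test. These 2 of 10 called genes stand against 13.9% of all tested genes called in either direction, 9.2% called higher and 4.71% called lower, which with 10 genes is a share near the background. The libraries of the groups were separate for the same 2 of 10 genes, while 35.8% of all tested genes had separate groups, 21.5% with DM higher and 14.3% with DM lower. The median change of the 10 genes was 0.2 on the log2 scale, against 0.01 for all tested genes, and it ran from 0.07 (DM replicate 2 left out) to 0.45 (DM replicate 3 left out). In bulk RNA, more megakaryocytes and more RNA of these genes per cell cannot be told apart.

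**Figure D1:**
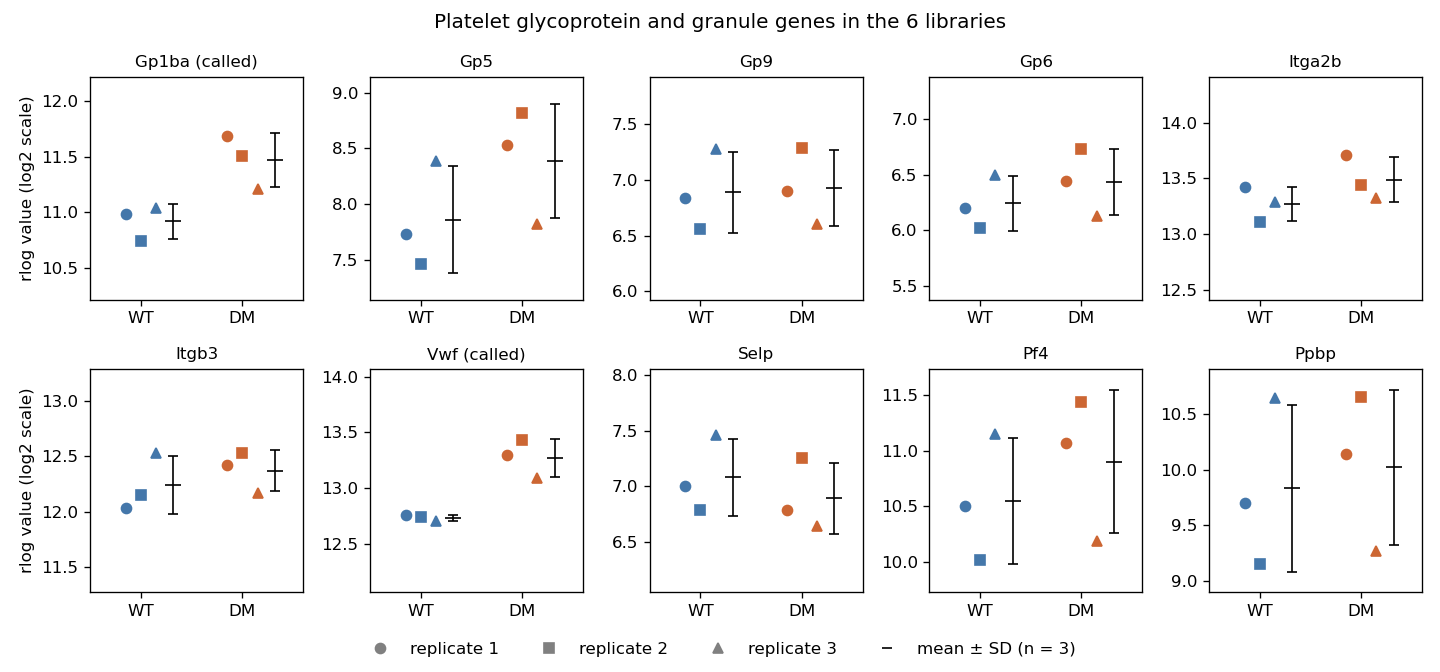
Rlog values (log2 scale) of the 10 genes in 3 WT (blue) and 3 DM (orange) libraries, with a marker for each replicate and black bars for the group mean ± SD, on axes that all span the same range. Gp1ba and Vwf have separate groups, while the values of Ppbp run from 9.15 to 10.64 in WT and from 9.27 to 10.65 in DM.

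Gp1ba (ENSMUSG00000050675.7; chromosome 11, 70639122 to 70642036, plus strand) encodes the chain of the von Willebrand receptor that makes the contact with its ligand. Replicates 1, 2 and 3 read 10.99, 10.74 and 11.04 (rlog) in WT, against 11.69, 11.51 and 11.21 in DM. Every DM library lay above every WT library, with DM replicate 3 nearest to the WT libraries. WT libraries averaged 10.92 ± 0.158 (SD, n = 3) and DM libraries 11.47 ± 0.242. The change was 0.55 (SE 0.122, 95% interval 0.28 to 0.82, limma adjusted p 0.017). The adjusted p ran from 0.00878 to 0.0625 over the 12 alternatives, and the call was lost without DM replicate 2 (0.53, limma adjusted p 0.0625) and after quantile normalization (0.45, limma adjusted p 0.0611).

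Gp5 (ENSMUSG00000047953.7; chromosome 16, 30307685 to 30310779, minus strand) encodes the outer subunit of the same receptor, which thrombin cuts. Its values read 7.73, 7.46 and 8.39 in WT, against 8.53, 8.82 and 7.82 in DM. WT replicate 3 lay above DM replicate 3, so the groups overlapped although their means differed by 0.53 (SE 0.266, 95% interval -0.07 to 1.12, limma adjusted p 0.218), nearly as much as those of Gp1ba. The difference was 0.79 without WT replicate 3 (limma adjusted p 0.0585) and 0.81 without DM replicate 3 (limma adjusted p 0.0699). Gp9 (ENSMUSG00000030054.4; chromosome 6, 87778072 to 87779768, plus strand), the small subunit needed to bring the complex to the surface, read 6.84, 6.56 and 7.28 in WT, against 6.9, 7.29 and 6.61 in DM. Both groups covered nearly the same range, and the difference was 0.04 with a 95% interval from -0.39 to 0.47. The subunits of this receptor therefore had fitted differences from 0.04 to 0.55, and whether these differ from each other was not tested.

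Gp6 (ENSMUSG00000078810.4; chromosome 7, 4363965 to 4397744, minus strand), the collagen receptor, read 6.2, 6.02 and 6.5 in WT, against 6.44, 6.73 and 6.13 in DM. The groups overlapped, and the difference was 0.19 (SE 0.154, 95% interval -0.15 to 0.54, limma adjusted p 0.43). Its signalling partners Fcer1g and Syk, which myeloid and mast cells also use, were both called higher. Fcer1g read 13.86, 14.08 and 13.91 in WT, against 14.34, 14.46 and 14.33 in DM, a change of 0.42 (limma adjusted p 0.0128). Syk changed by 0.45 (limma adjusted p 0.0162), a call that was lost without WT replicate 1 (0.38, limma adjusted p 0.0776) and without DM replicate 2 (0.41, limma adjusted p 0.073).

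Itga2b (ENSMUSG00000034664.13; chromosome 11, 102453297 to 102470122, minus strand), the alpha chain of the fibrinogen receptor known as CD41, read 13.42, 13.11 and 13.29 in WT, against 13.71, 13.44 and 13.32 in DM. DM replicate 3 fell within the WT range, and the difference was 0.21 (SE 0.115, 95% interval -0.04 to 0.47, limma adjusted p 0.243). Itgb3 (ENSMUSG00000020689.4; chromosome 11, 104608000 to 104670476, plus strand), the beta chain, which also pairs with the integrin chain alpha-v outside platelets, read 12.03, 12.15 and 12.53 in WT, against 12.42, 12.53 and 12.17 in DM. The highest library of each group stood at 12.53, and the difference was 0.14 (SE 0.133, 95% interval -0.16 to 0.44, limma adjusted p 0.513).

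Vwf (ENSMUSG00000001930.17; chromosome 6, 125546774 to 125686679, plus strand), the adhesive protein that Gp1ba binds, read 12.76, 12.74 and 12.7 in WT, against 13.3, 13.43 and 13.09 in DM. The WT libraries lay within 0.06 of each other and all DM libraries lay above them. WT libraries averaged 12.73 ± 0.0286 (SD, n = 3) and DM libraries 13.27 ± 0.172. The change was 0.54 (SE 0.0916, 95% interval 0.34 to 0.75, limma adjusted p 0.00667). This call was kept in all 12 alternatives, with changes from 0.4 to 0.63 and adjusted p values from 0.00127 to 0.0296.

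Selp (ENSMUSG00000026580.16; chromosome 1, 164115264 to 164150026, plus strand), the granule membrane protein that binds leukocytes, read 7, 6.79 and 7.46 in WT, against 6.79, 7.25 and 6.64 in DM. It was the 1 gene of the 10 with a lower mean in DM, by -0.19 (SE 0.184, 95% interval -0.6 to 0.22, limma adjusted p 0.516), and its groups overlapped. Exons of Gm16587 and Gm16548 lie on the strand opposite Selp, and whether reads were assigned by strand is not given in the sources used here, so its value is uncertain.

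The chemokine genes Pf4 (ENSMUSG00000029373.7; chromosome 5, 90772435 to 90773383, plus strand) and Ppbp (ENSMUSG00000029372.7; chromosome 5, 90768518 to 90770063, plus strand) are neighbours, 2372 bases apart. Pf4 read 10.5, 10.02 and 11.15 in WT, against 11.07, 11.44 and 10.19 in DM, and Ppbp read 9.7, 9.15 and 10.64 in WT, against 10.14, 10.65 and 9.27 in DM. In both genes WT replicate 3 and DM replicate 2 were the highest libraries of their groups, and WT replicate 2 and DM replicate 3 the lowest. The difference of Pf4 was 0.35 (SE 0.321, 95% interval -0.37 to 1.06, limma adjusted p 0.497) and that of Ppbp was 0.19 (SE 0.382, 95% interval -0.66 to 1.04, limma adjusted p 0.771). The difference of Pf4 fell to 0.08 or 0.07 when replicate 2 of WT or of DM was left out, and stood at 0.64 or 0.7 when replicate 3 of WT or of DM was left out, none of them past the threshold. At this spread the intervals do not exclude a rise of Pf4 by as much as that of Vwf.

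**Figure D2:**
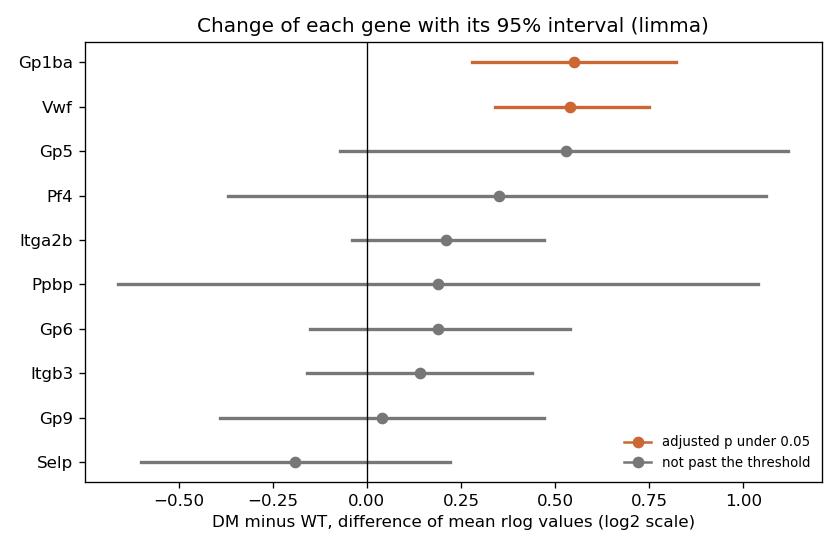
Difference of mean rlog values, DM minus WT (log2 scale), for each of the 10 genes, with its 95% interval from limma. The intervals of Gp1ba (0.28 to 0.82) and Vwf (0.34 to 0.75) lie above 0, and the intervals of the other 8 genes include 0.

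Libraries of 1 group differed widely in most of these genes. The SD within groups was 0.724 for Ppbp, 0.606 for Pf4 and 0.496 for Gp5, which is 8.6, 7.19 and 5.9 times the median of 0.0842 over all tested genes. It was above the 90th percentile of all tested genes (0.161) for 9 of the 10 genes, the exception being Vwf at 0.123. Within a group, the highest and the lowest library differed by up to 2.8-fold for Ppbp, 2.39-fold for Pf4 and 1.99-fold for Gp5, each more than the fold between the group means of any of the 10 genes.

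The libraries followed a shared order, a pattern noted after the values were seen. WT replicate 3 was the highest WT library for 8 of the 10 genes, against 31.6% of tested genes overall. WT replicate 2 was the lowest for 8 of the 10, against 26.5% of all tested genes. Among the DM libraries, replicate 2 was the highest for 8 of the 10 (38.9% of all tested genes) and replicate 3 the lowest for all 10 (34.6%). The complete order, WT replicate 3 and DM replicate 2 highest with WT replicate 2 and DM replicate 3 lowest, was met by 6 genes, Gp5, Gp9, Gp6, Selp, Pf4 and Ppbp, and by 4.65% of all tested genes. These 10 genes share libraries and are not replicates of one another, so the counts are a description.

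**Figure D3:**
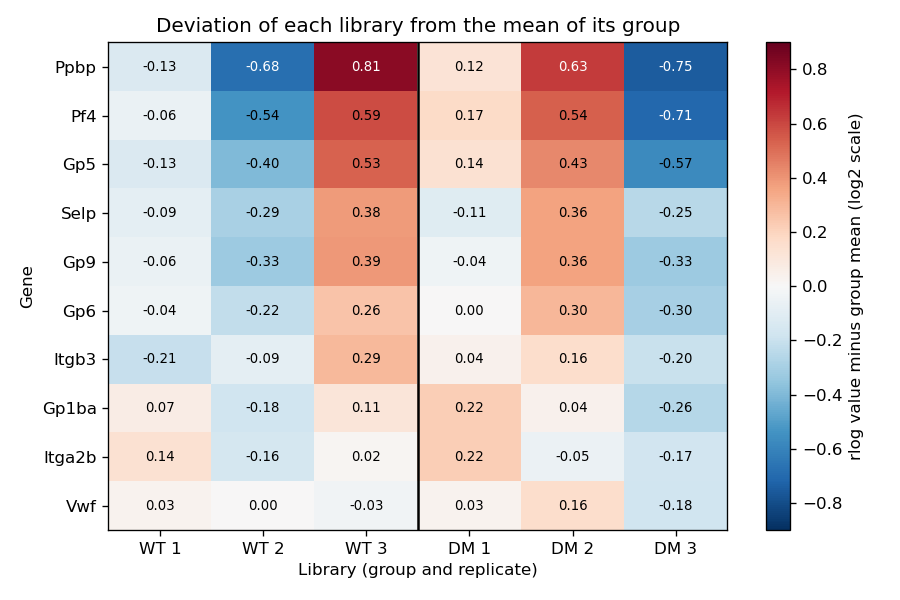
Rlog value of each library minus the mean of its own group (log2 scale), for the 10 genes in rows and the 6 libraries in columns, with red for values above and blue for values below the group mean. WT replicate 3 reaches 0.81 and DM replicate 3 reaches -0.75 in Ppbp, while all WT values of Vwf lie between -0.03 and 0.03.

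Gp1ba, Itga2b, Itgb3 and Vwf departed from that order. Itga2b was highest in WT replicate 1 and DM replicate 1 of their groups, and Gp1ba was highest in DM replicate 1. The mast cell gene Cpa3, a carboxypeptidase of mast cell granules, was also highest in replicate 1 of both groups (17.97 in WT and 18.26 in DM), and so was Kit (14.58 and 14.9). The summed level of the 14 mast cell markers was 19.22 in WT replicate 1 and 19.35 in DM replicate 1, against 18.83 to 19 in the other 4 libraries. Cpa3, the highest gene of that list, weighs most in this sum. Exceptions in the list were Mcpt1 (highest in WT replicate 2 and DM replicate 2), Slc6a4 (WT replicate 3 and DM replicate 2), Hdc (WT replicate 3) and Mitf (WT replicate 2). The part of mast cell RNA in the values of Itga2b and Gp1ba was not tested. Vwf was the one gene of the 10 whose lowest WT library was replicate 3.

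Among 11967 other genes with a mean of at least 6, the 5 whose profile over the 6 libraries was most like the mean profile of the 10 genes were Clec1b (Pearson r 0.978), Gm10709 (0.967), Rbpms2 (0.967), Gstt1 (0.965) and Lgalsl (0.962). These are descriptions over 6 points that share library and group, with no test. Clec1b encodes CLEC-2, the podoplanin receptor of platelets, and read 7.33, 7.18 and 7.6 in WT, against 7.54, 7.68 and 7.38 in DM. Its difference of 0.17 did not pass the test (limma adjusted p 0.359). The mean profile itself, centred for each gene, was -0.17, -0.42 and 0.21 in WT and 0.21, 0.42 and -0.24 in DM.

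A wider set of platelet genes was read from 4 lists. In the list of other platelet receptors and adhesion proteins, 7 of the 24 tested genes were called (29.2%, against 13.9% of all tested genes), all 7 higher in DM (9.2% of all tested genes), and 17 did not pass. The median change of the list was 0.03. The largest changes were in the tetraspanin Cd9 (0.62, limma adjusted p 0.0187), the fibronectin receptor chain Itga5 (0.6, limma adjusted p 0.00956), the tetraspanin Cd151 (0.53, limma adjusted p 0.00553) and the lysosome and granule membrane protein Cd63 (0.43, limma adjusted p 0.0222). All 4 are also made by other blood cells. Without WT replicate 1 or without DM replicate 2 the list held 2 called genes, and Cd9 (0.6 and 0.5, limma adjusted p 0.0692 and 0.0698) and Cd63 (0.46 and 0.39, limma adjusted p 0.0632 and 0.0918) were then not among them. Over all 18766 tested genes the calls fell too, from 2611 to 1185 and 1119. Cd63 lost its call in 5 of 12 alternatives, also after quantile normalization (0.27, limma adjusted p 0.082), without WT replicate 3 (0.4, limma adjusted p 0.0591) and without DM replicate 1 (0.36, limma adjusted p 0.0772). Among the genes of the list that did not pass were Clec1b and Treml1 (0.17, limma adjusted p 0.372), and both followed the shared order of libraries, while the prostacyclin receptor Ptgir was called (0.42, limma adjusted p 0.0151).

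The list of other granule cargo and granule biogenesis genes had 11 of 32 genes called (34.4%, against 13.9% of all tested genes), 8 higher and 3 lower, with a median change of 0.09. Over all tested genes 9.2% were called higher and 4.71% lower. The largest changes were falls. F13a1, the A chain of clotting factor XIII, which monocytes also make, read 8.96, 9.35 and 8.88 in WT, against 7.55, 7.5 and 7.65 in DM. The change was -1.49 (SE 0.115, limma adjusted p 0.000134). Where platelets keep the F13a1 product was not measured, so its place in this list does not make it granule cargo. The growth factor Vegfa changed by -1.22 (limma adjusted p 0.000331) and the secretion GTPase Rab27a by -0.61 (limma adjusted p 0.000687), and App, whose product is an alpha granule protein, rose by 0.62 (limma adjusted p 0.0143). The number of called genes fell to between 3 and 6 without any 1 of WT replicates 1 and 3 and DM replicates 1, 2 and 3. Over all tested genes the calls then fell too, from 2611 to between 1119 and 1998. F13a1, Vegfa and Rab27a kept their calls in all 12 alternatives. App lost its call without WT replicate 1 (0.58, limma adjusted p 0.0565) and without DM replicate 2 (0.52, limma adjusted p 0.0567). Mmrn1, the alpha granule protein multimerin, did not pass (0.1, limma adjusted p 0.831) and followed the shared order, from 6.95 to 8.02 in WT and from 7.07 to 7.9 in DM.

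In the list of platelet signalling and cytoskeleton genes 5 of 29 were called, 3 higher and 2 lower, with a median of 0.09, and this share of 17.2% is near the 13.9% of all tested genes. Rasgrp2, the exchange factor that activates the integrin through Rap1, read 10.11, 10.25 and 10.13 in WT, against 8.77, 9.04 and 9.13 in DM. The change was -1.18 (SE 0.0962, limma adjusted p 0.000164). The tubulin Tuba4a fell by 0.51 (limma adjusted p 0.00361), while the thromboxane synthase Tbxas1 changed by 0.39 (limma adjusted p 0.00944) beside Syk. The list held 3 called genes without WT replicate 1 and 3 without DM replicate 2, settings in which the calls over all tested genes fell too. Alox12, the platelet lipoxygenase, did not pass (0.26, limma adjusted p 0.545) and read 7.29, 7.25 and 8.23 in WT, against 7.9, 8.24 and 7.4 in DM, in the shared order.

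In the list of megakaryocyte transcription factors, 3 of 22 genes were called (13.6%, against 13.9% of all tested genes in either direction). All 3 were lower in DM, a direction called in 4.71% of all tested genes. The median was -0.01. Ets1, of the ETS family, read 10.94, 11.21 and 11.4 in WT, against 10.33, 10.18 and 10.35 in DM. The change was -0.9 (SE 0.11, limma adjusted p 0.00168). Nfe2, which drives late platelet formation, changed by -0.58 (limma adjusted p 0.00361). Lyl1, a partner of GATA factors, changed by -0.29 (limma adjusted p 0.0169) and lost its call in 5 of 12 alternatives. Gata1 (0.1, 95% interval -0.14 to 0.34) and Fli1 (-0.09, 95% interval -0.25 to 0.07), the best known activators of platelet glycoprotein genes, did not pass. No gene of this list followed the shared order of libraries, which 4.65% of all tested genes met, and with 22 genes this is near the background.

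**Figure D4:**
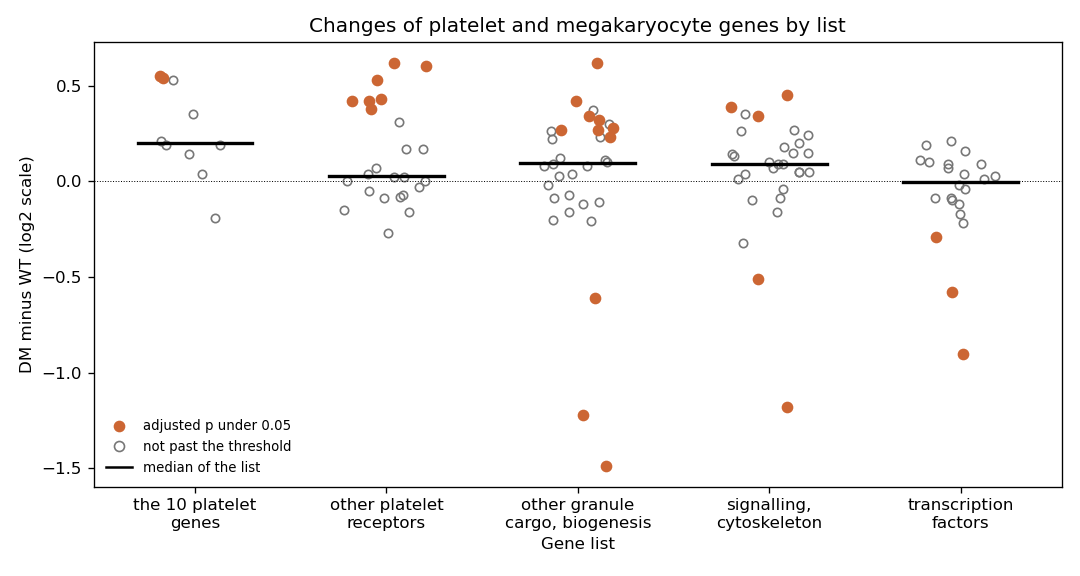
Difference of mean rlog values, DM minus WT (log2 scale), for the tested genes of 5 lists, with filled points for an adjusted p under 0.05, open points for the other genes and a bar for the median of each list. The medians run from -0.01 to 0.2, and the lowest points are F13a1 (-1.49), Vegfa (-1.22) and Rasgrp2 (-1.18).

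Markers of the other cells in these cultures moved as well. Most tested macrophage markers rose with the same groups as Gp1ba and Vwf: 10 of 13 were called (76.9%, against 13.9% of all tested genes). All 10 were higher, against 9.2% of all tested genes called higher. They were led by Marco (0.99, limma adjusted p 0.0342), Gpnmb (0.96, limma adjusted p 0.012) and Ctss (0.96, limma adjusted p 0.0115). The summed level of all 16 macrophage markers ran from 18.24 to 18.96 in WT and from 19.28 to 19.65 in DM. C1qb (-0.05), C1qc (-0.09) and Fcgr1 (0.28, limma adjusted p 0.113) were not called. Too low to be tested were C1qa (2.45 to 2.56), Timd4 (1.63 to 1.71) and Vsig4 (0.63 to 0.68). Among the leading macrophage markers Marco lost its call in 4 of 12 alternatives. These were without WT replicate 1 (1.01, limma adjusted p 0.0814), WT replicate 3 (0.67, limma adjusted p 0.0528), DM replicate 1 (0.92, limma adjusted p 0.0834) and DM replicate 2 (0.87, limma adjusted p 0.113). The part of macrophages in the values of the platelet genes was not tested. Endothelial markers, read because Vwf and Selp are endothelial genes too, had 2 of 12 called (16.7%, against 13.9% of all tested genes in either direction). Both were lower in DM, a direction called in 4.71% of all tested genes. They were Flt1 (-0.59, limma adjusted p 0.0167) and Egfl7 (-0.39, limma adjusted p 0.0102). Flt1 lost its call without WT replicate 1 (-0.49, limma adjusted p 0.062). The summed level of all 16 endothelial markers ran from 11.35 to 11.54 in WT and from 11.07 to 11.23 in DM. Most of that sum came from Erg, which blood progenitors also express and which was not called (mean 10.98 in WT and 10.69 in DM, limma adjusted p 0.0622). Some other markers were low, with Cdh5 at 3.97 to 4.23, Sele at 1.9 to 2.03 and Cldn5 at 1.76 to 1.83. Others stood higher, with Tie1 at 4.93 to 5.42, Kdr at 6.76 to 7.27 and Flt1 at 7.76 to 8.77.

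Erythroid markers varied between libraries. None of the 12 tested markers was called by limma, against 13.9% of all tested genes. An unadjusted limma p under 0.05 was found for 0 of them, against 5415 of all 18766 tested genes. Every tested erythroid marker had a lower mean in DM, from -0.57 in Slc4a1 to -0.07 in Epor. The median change was -0.27, against 0.01 for all tested genes. In 5 of the 12 (41.7%, against 4.65% of all tested genes), among them the erythroid regulator Klf1 and the globin gene Hbb-bt, the libraries followed the order of Pf4 and Ppbp. Their mean centred level was 0.6 in WT replicate 3 and -0.38 in DM replicate 3, and between -0.14 and 0.01 in the other 4 libraries. The same order was met by 4 of the 12 tested endothelial markers (33.3%), Tie1, Robo4, Plvap and Mmrn2. The last 3 lay little above the filter of 3 and their DM libraries hardly differed. Robo4 ran from 3.43 to 3.49 in DM, Plvap from 3.98 to 4.04 and Mmrn2 from 3.24 to 3.34, so their order rests on very small differences. The part of erythroid or endothelial RNA in the values of the platelet genes was not tested. Mast cell markers had 5 of 13 called (38.5%, against 13.9% of all tested genes), 4 higher and 1 lower. They were led by Mcpt1 (1.32, limma adjusted p 0.0491), Hdc (-0.62, limma adjusted p 0.0457) and Mitf (0.52, limma adjusted p 0.00293). Mcpt1 and Hdc lost their calls in 9 and 7 of 12 alternatives, without DM replicate 2 in both (0.81 and -0.43, limma adjusted p 0.0793 and 0.139). Neutrophil markers had 11 of 14 called (78.6%), all 11 lower (4.71% of all tested genes), led by Mpo (-4.23, limma adjusted p 0.000444). The summed level of the neutrophil markers ran from 18.62 to 19.06 in WT and from 17.31 to 18.14 in DM. Kit, the marker by which the cells had been selected, ranged from 14.29 to 14.9 after the 8 days of culture, with no call (0.2, limma adjusted p 0.368).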

How the data were processed

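The authors' deposited table held log2-scale values, 1 column per library. Its name and values identify the regularized log transform. Per the submitters' processing notes, cutadapt 2.6, STAR 2.7.3, DESeq2 1.30.0 and the build mm10 were used. The counting tool and annotation are not given in the sources used here. Identical lines (142699) were merged to 55487 genes. GENCODE M21 on GRCm38 held the versioned identifiers of 54349 (97.9%) and supplied positions and exon lengths.

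Genes with a mean of 3 or more (18766) were fitted with limma 3.58.1 in R 4.3.3, with a mean-variance trend and no covariates, DM against WT. P-values were adjusted over all of them (Benjamini-Hochberg), and genes under 0.05 are called. The script was tested on simulated data. The 10 genes and all lists were chosen with earlier results of these data known. Other genes named are up to 4 called per pathway list and 3 per marker list by size of change, the 5 most alike in profile, neighbours of called genes, and some chosen after their values were seen. A summed level is the log2 of a list's summed linear values. Alternatives left out the filter, raised it to 5, dropped the trend, normalized by quantiles, centred on library medians, blocked on replicate number or omitted each library.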

Additional observations from a re-analysis of the deposited data

How the results depend on the processing

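Of the values of 45 named genes under 12 alternatives (11 for Flt3 and Cd79b), 482 kept their direction and their side of the threshold, 52 lost their call, none gained one and 4 changed sign. The changes of sign were in Gp9 (-0.13 without WT replicate 2 and -0.14 without DM replicate 2) and Ppbp (-0.15 and -0.12), none of them called. With a library left out, Gp9 ran from -0.14 to 0.23 and Ppbp from -0.15 to 0.59. The number of platelet genes called was 1 after quantile normalization, and 1 to 2 with a library left out. Over all genes the number called was 1119 to 3475 with a library left out, and quantile normalization took the share of calls higher in DM from 66.1% to 51.3%. With a library left out, the called genes numbered 2 to 7 for platelet receptors, 3 to 11 for granule cargo and biogenesis, and 3 to 6 for signalling and cytoskeleton. Granule genes called were 4 without the filter and 6 after quantile normalization, and transcription factors called were 7 after quantile normalization and 5 after centring. In these cases the cause was not tested. With the replicate number as a block, 3742 genes, 8 signalling genes and 6 transcription factors were called, and the calls of Gp1ba and Vwf stood. The deviations of same-numbered libraries correlated at 0.49, 0.12 and 0.04 across genes, and WT replicate 3 correlated best with DM replicate 2 (0.12), so the numbers were not taken to pair the samples. Depth is unknown, and shrinkage limits what low genes such as Gp1bb can show.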

Other observations

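The neighbours of the called genes differed in their behaviour. Cd9, 51983 bases to the left of Vwf on chromosome 6 and on the opposite strand, read 14.61, 14.93 and 14.45 in WT, against 15.16, 15.53 and 15.16 in DM, with all DM libraries above all WT libraries (change 0.62, limma adjusted p 0.0187; calls lost with 3 libraries left out in turn, among them WT replicate 3 at 0.52 with limma adjusted p 0.0523). Ano2, 3740 bases to the right of Vwf, did not pass (-0.12, limma adjusted p 0.22). Beside Gp1ba, Slc25a11, a mitochondrial carrier 2160 bases away, read 11.66, 11.69 and 11.61 in WT, against 11.88, 11.85 and 11.79 in DM, separate groups with a difference of 0.19 that did not pass (limma adjusted p 0.0791), and Chrne did not pass (-0.02, limma adjusted p 0.803). Beside Pf4, which was not called, the neutrophil-attracting chemokine gene Cxcl3, 12720 bases away and singled out after its values were seen, read 8.61, 8.9 and 8.82 in WT, against 9.72, 9.28 and 9.52 in DM. The change was 0.73 (SE 0.115, limma adjusted p 0.00531). The libraries of Cxcl3 did not follow the order of Pf4 and Ppbp. Rdh13, 27026 bases to the right of Gp6, which was not called either, was also called higher (0.34, limma adjusted p 0.0404).

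Among the remaining marker lists, 3 of 12 stem and progenitor markers were called (25%, against 13.9% of all tested genes). Procr (0.73, limma adjusted p 0.00705) and Mecom (0.52, limma adjusted p 0.0189) were higher and Flt3 (-0.3, limma adjusted p 0.0494) lower. Of 9 eosinophil markers 3 were called (33.3%), all 3 lower (4.71% of all tested genes), led by Epx (-1.46, limma adjusted p 0.000118). Of 7 tested lymphoid markers 3 were called (42.9%, against 13.9% of all tested genes), in mixed directions. Il7r was higher (0.79, limma adjusted p 0.0094), and Nkg7 (-1.89, limma adjusted p 0.000155) and Cd79b (-0.27, limma adjusted p 0.0166) were lower. Over all tested genes 9.2% were called higher and 4.71% lower. Mecom lost its call without DM replicate 2 (0.53, limma adjusted p 0.0516), Cd79b without DM replicate 1 or 2 (limma adjusted p 0.0515 and 0.0637), and Flt3 in 9 of the 11 alternatives that could be run for it, since its mean lies under 5.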
